A study of Canis lupus familiaris with 62 samples.

Results

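ENSCAFG00000008999 and ENSCAFG00000016488 are 2 of the 30951 dog genes counted in 62 canine meningiomas. They were chosen by their read counts, in a contrast of tumours labelled with surgery plus radiotherapy against tumours with surgery alone. Of all genes tested there in the main edgeR fit, they alone passed an adjusted p of 0.05. That choice rests on measured values, so differences of the 2 genes that involve the surgical groups are given here as a description, without a test. Tests that use their levels within those groups are not free of that choice. The file pairs identifiers with no names, and 0 identifiers matched the name table used here, so both genes are given by identifier, their roles are not stated, and the tissue could not be checked against marker genes.

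Each library was made from total RNA of 1 archived, formalin-fixed and paraffin-embedded tumour, taken at surgery or soon after death. The labels give 6 treatment groups. No treatment was recorded for 27 dogs (14 female, 3 intact, survival label 0 to 4). The steroid group of 7 dogs (5 female, all neutered, survival label 2 to 191) holds 6 that also had an anti-epileptic drug and 1 that had a steroid alone, and 3 dogs (2 female, all neutered) had an anti-epileptic drug alone. Radiotherapy alone (RT) was the label of 3 neutered male dogs, surgery alone (Sx) of 13 dogs (5 female, 2 intact), and surgery plus radiotherapy (SxRT) of 9 dogs (5 female, 2 intact). Neither the dose of radiation nor the order of surgery, radiotherapy and sampling is in the labels, and each group mixes breeds. Whether an SxRT tumour was taken before or after radiation is therefore not known. Library totals ran from 1967061 to 12063982 counts. Each read of a pair was counted, so that 1 fragment mostly gives 2 counts and the totals overstate the precision. In bulk tissue, fewer cells of a type and less RNA per cell cannot be told apart.

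Meningiomas are tumours of the meninges, the membranes that cover the brain, and are a common brain tumour of older dogs. Surgery removes what can be reached. Ionising radiation damages DNA in the cells that remain, and it is given either after surgery or in its place. Steroids are used against swelling around the tumour and anti-epileptic drugs against seizures.

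On CanFam3.1, ENSCAFG00000008999 lies on the minus strand of chromosome 33, between bases 1628105 and 1692058. Its 14 exon blocks hold 2900 bases of a span of 63954 bases. ENSCAFG00000016488 lies on the plus strand of chromosome 20, between bases 48409045 and 48426669, with 12 exon blocks and 2534 exon bases in a span of 17625. No other gene of the file overlaps either of them, which matters because reads were counted without regard to strand. Both had counts in 62 of 62 libraries. ENSCAFG00000008999 had from 24 to 8824 counts (median 293) and ENSCAFG00000016488 from 320 to 4693 (median 877).

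ENSCAFG00000016488 was the steadier of the pair and ENSCAFG00000008999 the more variable. Levels are given as log2 CPM (CPM being a gene's counts as a share of the library total, on the usual fixed scale), scaled by TMM, a correction for library composition, with a prior count of 2. In the 27 untreated tumours ENSCAFG00000008999 ran from 3.82 through a median of 6.26 to 7.86 (mean 6.20 ± 1.14, SD), or from 13.7 to 232 CPM. ENSCAFG00000016488 ran from 7.02 through 7.68 to 8.54 (mean 7.66 ± 0.36, SD), or from 129 to 373 CPM. SDs over the untreated tumours were compared among genes that passed the filter on low counts and averaged a log2 CPM of 1 or more. Of these, 31.9% had a larger SD than the first gene, and 93.3% had a larger SD than the second. Both were among the more highly counted genes. Of the 18370 genes that passed the filter, 13.5% and 3.42% had a higher mean log2 CPM over the 62 libraries.

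With surgery plus radiotherapy, ENSCAFG00000008999 was spread over a range that no other group covered. In SxRT replicates 1 to 9, numbered in accession order, its log2 CPM was 7.18, 6.50, 9.76, 4.10, 9.21, 10.61, 10.88, 8.18 and 6.98. Replicates 3, 5, 6, 7 and 8 lay above the highest of the 27 untreated tumours and above the highest Sx tumour, while replicate 4 lay in the lowest part of the untreated range. The 13 Sx tumours ran from 3.1 through 5.78 to 7.46 (mean 5.84 ± 1.48, SD), against a mean of 8.16 ± 2.20 (SD, n = 9) with SxRT. The 9 SxRT tumours thus did not form a uniformly high group, and their range overlapped that of every other group.

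ENSCAFG00000016488 was high in fewer SxRT tumours. In replicates 1 to 9 its log2 CPM was 7.19, 7.72, 9.72, 7.13, 9.09, 7.99, 10.10, 7.61 and 6.97. Replicates 3, 5 and 7 lay above the highest untreated tumour (8.54), and those 3 with replicate 6 lay above the highest Sx tumour (7.79). The other 5 lay between 6.97 and 7.72, inside the untreated range or just under its lowest value. The Sx tumours ran from 6.51 through 7.11 to 7.79 (mean 7.17 ± 0.34, SD, n = 13), and 1 of the 13 lay above the untreated median.

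**Figure D1:**
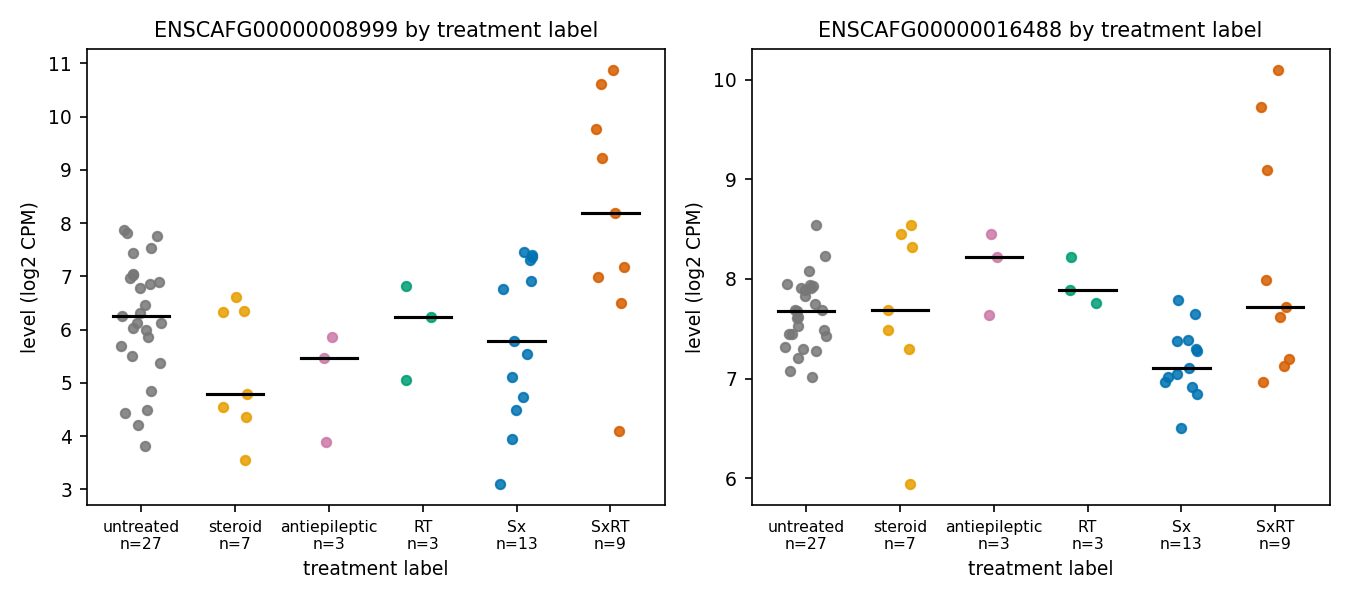
Level of ENSCAFG00000008999 (left) and ENSCAFG00000016488 (right) in log2 CPM on the vertical axis, by treatment label on the horizontal axis; each point is 1 tumour and each black line a group median. Of the 9 SxRT tumours 5 lie above every untreated and Sx tumour on the left, and 3 lie above every untreated tumour on the right.

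Group medians put the 2 genes in different orders. For ENSCAFG00000008999 the order of median log2 CPM was SxRT (8.18), untreated (6.26), RT (6.24), Sx (5.78), antiepileptic (5.48) and steroid (4.78). For ENSCAFG00000016488 it was antiepileptic (8.22), RT (7.89), SxRT (7.72), steroid (7.69), untreated (7.68) and Sx (7.11). In both orders the range of each group overlapped that of the next, so no neighbouring groups were separated by more than their spread. By median, SxRT was thus first for ENSCAFG00000008999 and behind the antiepileptic and RT groups for ENSCAFG00000016488.

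The difference that chose the genes, SxRT minus Sx, was 3.23 (SE 0.583) for ENSCAFG00000008999 and 1.40 (SE 0.277) for ENSCAFG00000016488 on the log2 scale in edgeR's quasi-likelihood fit of all 62 libraries with sex and neuter status. Called genes made up 0.0109% of the 18370 tested in that contrast, which are these 2 genes. Just outside the threshold, by order of p, stood ENSCAFG00000045233 with a difference of 7.03 and a mean log2 CPM of -0.88, and ENSCAFG00000012391 with 2.37 and a mean of 4.86. Against untreated tumours the same fit put SxRT at 2.90 (SE 0.452) and 0.90 (SE 0.238) for the 2 genes, and Sx at -0.33 (SE 0.428) and -0.50 (SE 0.215). Against radiotherapy alone SxRT stood at 3.63 (SE 1.07) and 0.63 (SE 0.454). These contrasts share the SxRT, Sx or untreated libraries with each other and are not independent. The names of all 9 SxRT and of 12 of 13 Sx samples begin with the letter S and those of the other groups with N, so a difference of a surgical from a non-surgical group and one between the letters cannot be told apart. The exception, Sx replicate 1, had levels of 7.31 and 7.65 for the 2 genes.

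Sample names hold a number from 11 to 22, after a letter, which the labels do not explain. The SxRT minus Sx difference was fitted within the lower and the higher numbers, and whether it differed between them was not tested. Among names numbered 11 to 16, with 2 SxRT and 7 Sx tumours, the difference was 1.31 (SE 0.985) for ENSCAFG00000008999 and 0.32 (SE 0.334) for ENSCAFG00000016488. Among names numbered 17 to 22, with 7 SxRT and 6 Sx tumours, it was 3.34 (SE 0.783) and 1.68 (SE 0.432). All 5 SxRT tumours that were high for ENSCAFG00000008999 carry numbers of the second range. In the 27 untreated tumours, 9 with the higher and 18 with the lower numbers, the 2 genes differed by 0.28 (SE 0.409, 95% interval from -0.56 to 1.12) and 0.14 (SE 0.163, 95% interval from -0.20 to 0.47), and neither passed the test (edgeR adjusted p 0.999 for both). That comparison called 0 of 14146 genes in edgeR (515 at an unadjusted p under 0.05) and 0 in DESeq2.

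Library measures of the high SxRT tumours overlapped those of the rest of their group. Mitochondrial genes took 7.21%, 19.98%, 10.9%, 10.2% and 9.62% of the counts in SxRT replicates 3, 5, 6, 7 and 8, which were high for ENSCAFG00000008999, and between 5.11% and 13.4% in the other 4. On the first principal component of all libraries, which carried 27.7% of the variance, these 5 stood at -52.6, -20.3, -57.4, -50.0 and -64.3, and the other 4 between -73.4 and -1.31. Replicate 5 thus had the largest mitochondrial share of its group. The part of these measures in the SxRT levels was not tested.

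Radiotherapy without surgery is the group closest in treatment that took no part in the choice of the genes. In the 3 RT tumours ENSCAFG00000008999 had log2 CPM of 5.06, 6.24 and 6.82, and ENSCAFG00000016488 had 7.89, 7.75 and 8.22. For ENSCAFG00000008999 all 3 lay inside the untreated range, and 1 of 3 lay above the untreated median. For ENSCAFG00000016488 all 3 lay inside the untreated range and above its median. Relative to untreated tumours the fitted differences were -0.73 (SE 0.823, 95% interval from -2.38 to 0.92) and 0.26 (SE 0.382, 95% interval from -0.50 to 1.03). Neither passed the test (edgeR adjusted p 0.908 and 0.940), in a comparison that called 0.435% of 18370 genes, 78 higher and 2 lower. With treatment group as the only term, the differences were -0.37 (SE 0.781) and 0.26 (SE 0.363), so the size for ENSCAFG00000008999 depends on the terms for sex and neuter status. All 3 RT dogs were male, and the main fit takes the effect of sex from the other groups, Sx and SxRT included. Its spread is likewise estimated over all 62 libraries. The SEs, intervals and p-values of this contrast and of the drug contrasts below are therefore not free of the tumours that chose the genes.

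Drug-treated tumours had lower medians of ENSCAFG00000008999 than untreated tumours, but neither group passed the test. In steroid replicates 1 to 7 its log2 CPM was 4.78, 6.61, 4.36, 4.55, 3.56, 6.36 and 6.32, with 3 of 7 above the untreated median. In the antiepileptic group it was 3.89, 5.87 and 5.48, with 0 of 3 above that median. The fitted difference from untreated tumours was -0.87 for steroid (SE 0.560, 95% interval from -1.99 to 0.25, edgeR adjusted p 0.589) and -1.29 for antiepileptic (SE 0.842, 95% interval from -2.98 to 0.39, edgeR adjusted p 0.987). Genes called made up 0.256% of those tested with a steroid and 0.00544% with an anti-epileptic drug.

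ENSCAFG00000016488 in the same tumours gave fitted differences of the other sign, which did not pass the test either. Its log2 CPM in steroid replicates 1 to 7 was 8.32, 8.45, 8.54, 7.69, 5.94, 7.29 and 7.49, and in the antiepileptic group it was 8.45, 8.22 and 7.64. Steroid replicates 1, 2 and 3 lay in the upper part of the untreated range, and replicate 5, at 5.94, was the lowest of all 62 tumours. The fitted differences were 0.20 with a steroid (SE 0.263, 95% interval from -0.33 to 0.72, edgeR adjusted p 0.832) and 0.46 with an anti-epileptic drug (SE 0.362, 95% interval from -0.27 to 1.18, edgeR adjusted p 0.999). Steroid replicate 5 was also the lowest of its group for ENSCAFG00000008999. Its library had the largest total, 12063982 counts, and a mitochondrial share of 46.7%, and the part of these in its low values was not tested.

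**Figure D2:**
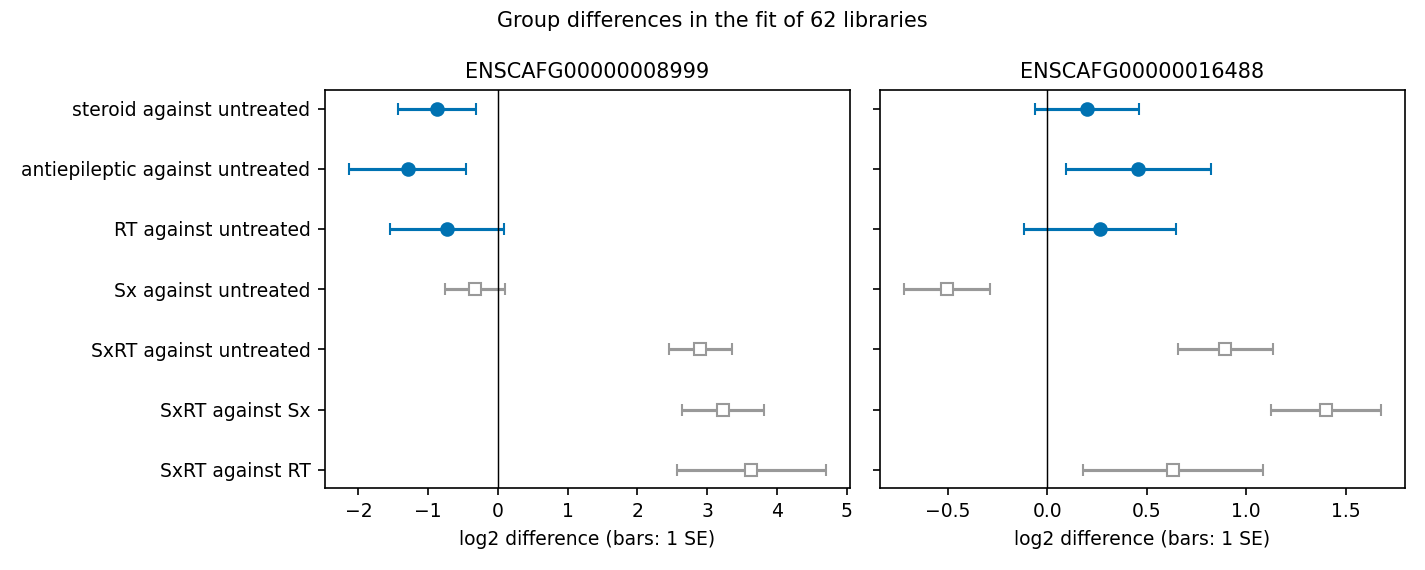
Fitted log2 difference between groups on the horizontal axis for ENSCAFG00000008999 (left) and ENSCAFG00000016488 (right), with bars of 1 SE. Filled circles are contrasts between groups other than Sx and SxRT, and open squares are contrasts given as a description only. All come from a single fit of 62 libraries, whose spread also draws on the Sx and SxRT tumours. The 3 filled points of ENSCAFG00000008999 lie between -1.29 and -0.73 and those of ENSCAFG00000016488 between 0.20 and 0.46.

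Sex was asked about in the 40 dogs without surgery. Females minus males gave -0.55 for ENSCAFG00000008999 (SE 0.355, 95% interval from -1.26 to 0.17, edgeR adjusted p 0.703) and -0.07 for ENSCAFG00000016488 (SE 0.177, 95% interval from -0.42 to 0.29, edgeR adjusted p 0.971). Of 20377 genes, edgeR called 0 (an unadjusted p under 0.05 was reached by 1925) and DESeq2 called 6. Neither gene was thus shown to differ by sex.

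Per kilobase of exon, ENSCAFG00000016488 had the higher level in most tumours. Its median was 80.9 CPM per kilobase in untreated tumours, where ENSCAFG00000008999 had 26.3. The ratio of the first gene to the second had a median of 0.291 there, 0.336 with Sx, 0.304 with RT, 0.170 with an anti-epileptic drug, 0.162 with a steroid and 0.895 with SxRT. ENSCAFG00000008999 was the higher of the pair in 3 of 27 untreated, 2 of 13 Sx and 3 of 9 SxRT tumours, and in 0 of the other 13. The largest ratio, 5.40, was that of SxRT replicate 6, which was high for ENSCAFG00000008999 and lay inside the untreated range for ENSCAFG00000016488.

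Outside the SxRT group the levels of the 2 genes were not shown to be related. In the 27 untreated tumours Pearson's r was -0.12 (permutation p 0.548) and Spearman's rho -0.17 (permutation p 0.398), and r without the 2 tumours farthest from the median was -0.12. Within the 7 steroid tumours r was 0.35 (rho 0.14, exact permutation p 0.486 and 0.783). The 13 Sx tumours gave r 0.26 (rho 0.19). Over the 53 tumours without SxRT, as deviations from group means, r was 0.09 (rho -0.03). The Sx and 53-tumour values are given without a test, because Sx levels also took part in the choice of the genes.

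With the 9 SxRT tumours added, the deviations of all 62 tumours from their group means gave r 0.37 (0.31 without the 2 farthest) and rho 0.21, given without a test because these values include those that chose the genes. That value rests on the SxRT group, where replicates 3, 5 and 7 were high for both genes and replicate 6 for 1 of them. Of the other 5, replicate 8 was above the untreated range for ENSCAFG00000008999 only, and replicates 1, 2, 4 and 9 were high for neither. Because SxRT levels chose the genes, the joint rise in 3 tumours is a description.

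**Figure D3:**
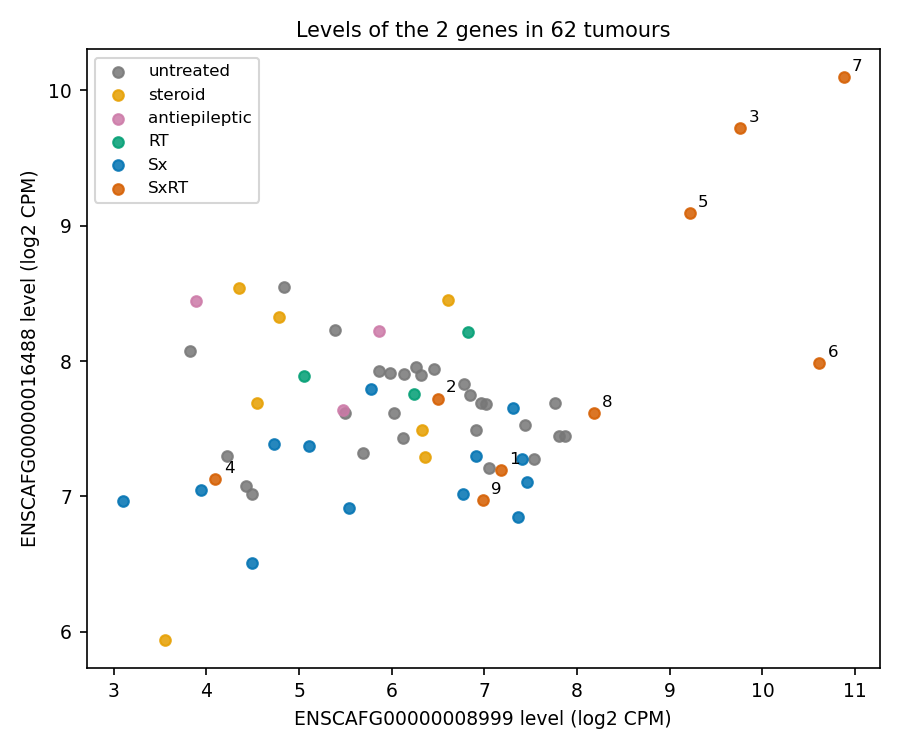
Level of ENSCAFG00000008999 (horizontal axis, log2 CPM) against that of ENSCAFG00000016488 (vertical axis, log2 CPM) in 62 tumours, coloured by treatment label, with SxRT replicates numbered. SxRT replicates 3, 5 and 7 lie apart at the upper right and replicate 6 at the right, and in the 27 untreated tumours r was -0.12.

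Survival was given as a label without a unit. In the 22 surgical dogs 8 have a recorded end and 14 were lost to follow-up. The 5 SxRT dogs highest for ENSCAFG00000008999, replicates 3, 5, 6, 7 and 8, have labels of 248, 1234, 1523, 499 and 832, and all 5 were lost to follow-up. The 2 SxRT dogs with a recorded end, replicates 1 and 4, have labels of 156 and 396 and levels of 7.18 and 4.10. For ENSCAFG00000016488 the same 2 dogs stood at 7.19 and 7.13, both below the SxRT median.

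A Cox model with Sx and SxRT as strata gave a log hazard ratio per log2 unit of -0.17 for ENSCAFG00000008999 (SE 0.225, 2-sided permutation p 0.458) and of -1.39 for ENSCAFG00000016488 (SE 1.09, permutation p 0.176), both adjusted to 0.458 over the 6 survival relations asked about. The Cox score test with these strata called 0 of 18370 genes (an unadjusted p under 0.05 was reached by 963). Without SxRT replicate 4, the value of ENSCAFG00000008999 turned to 0.03 (SE 0.305, permutation p 0.913). That of ENSCAFG00000016488 moved to -2.70 without Sx replicate 1 (SE 1.77, permutation p 0.0853) and to -0.93 without Sx replicate 4 (SE 1.04, permutation p 0.377). The estimates rest on 8 recorded ends, 2 of them in the SxRT group. The strata take out the difference between the groups, but the levels used are those that chose the 2 genes. The p-values of the 2 genes are therefore not free of that choice.

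Among Sx dogs with a recorded end, ENSCAFG00000008999 ran from 3.1 through 6.84 to 7.37, and among those lost to follow-up from 3.94 through 5.11 to 7.46. For ENSCAFG00000016488 the same ranges were 6.85 through 7.16 to 7.79 and 6.51 through 7.11 to 7.39. The ranges by status thus overlapped for both genes.

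**Figure D4:**
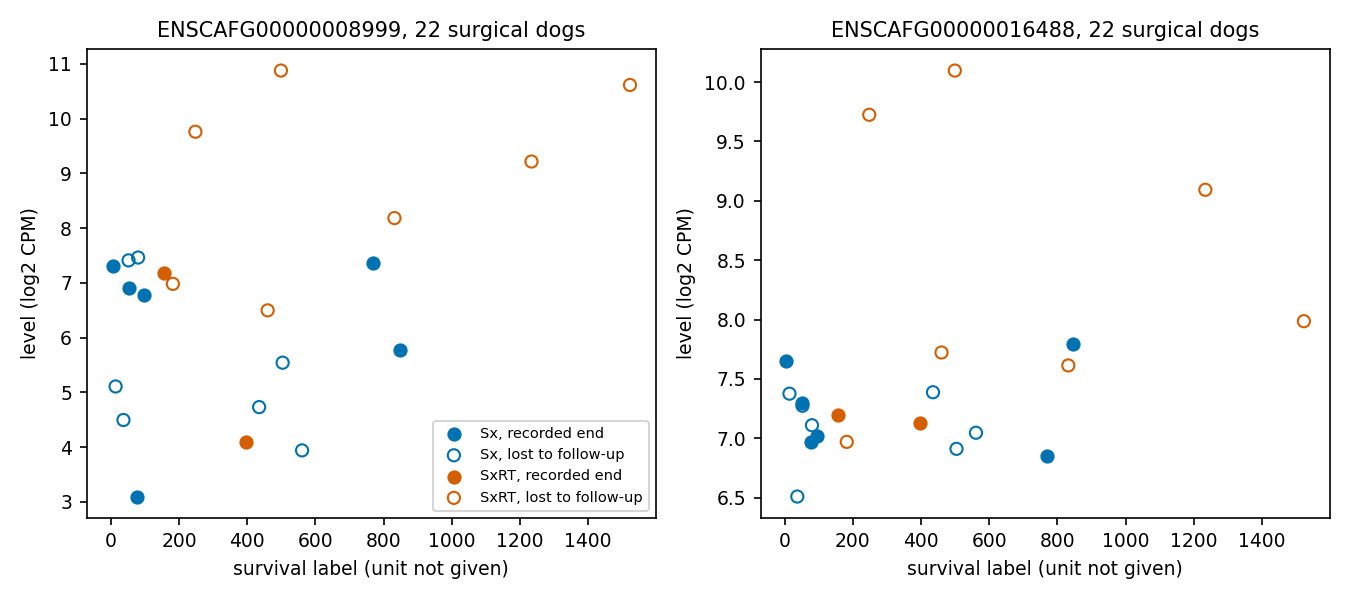
Survival label (horizontal axis, unit not given) against the level in log2 CPM (vertical axis) of ENSCAFG00000008999 (left) and ENSCAFG00000016488 (right) in 22 surgical dogs; filled points are recorded ends and open points dogs lost to follow-up. All 5 SxRT dogs above the Sx range on the left are open points, with labels from 248 to 1523.

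In dogs without surgery, survival was not shown to go with either gene. The 10 drug-treated dogs gave r 0.43 for ENSCAFG00000008999 (rho 0.31, permutation p 0.211 and 0.386, r 0.48 without the 2 farthest). For ENSCAFG00000016488 they gave r 0.28 (rho 0.21, permutation p 0.446 and 0.562), which turned to -0.19 without the 2 farthest. Of the untreated dogs, 16 with a label of 0 had a mean log2 CPM of ENSCAFG00000008999 of 6.36 ± 1.08 (SD), against 5.97 ± 1.22 in the 11 with a label above 0 (permutation p 0.394). ENSCAFG00000016488 had 7.59 ± 0.36 against 7.76 ± 0.33 (permutation p 0.241). Each of these 4 p-values was adjusted to 0.458 over the same 6 relations. The 3 RT dogs, with labels of 182, 468 and 505, are too few for a correlation.

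Many genes varied with ENSCAFG00000008999 over the 27 untreated tumours. By limma-trend with its level as the regressor, 1249 of 18369 genes (6.80%) passed an adjusted p of 0.05, 863 (4.70%) with a positive and 386 (2.10%) with a negative slope. In the 35 tumours of the other groups, within groups, 233 genes did (1.27%), 184 positive (1.00%) and 49 negative (0.267%). Of the 863 positive genes 804 kept the sign there and 102 passed the test, with a median r of 0.37. Of the 386 negative genes 326 kept the sign and 10 passed, with a median r of -0.22. Over all genes 48.2% had a positive r in the other tumours and the median r was -0.01.

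ENSCAFG00000016488 varied with a similar number of genes in the untreated tumours, but few passed in the others. Of 18369 genes 1568 (8.54%) passed in the untreated tumours by limma-trend, 882 positive (4.80%) and 686 negative (3.73%). In the 35 other tumours 13 passed (0.0708%), 10 positive (0.0544%) and 3 negative (0.0163%). Of the 882 positive genes 767 kept the sign there, with a median r of 0.17, and 1 passed. Of the 686 negative genes 481 kept it, with a median r of -0.11, and 0 passed (13 genes passed in all, 1963 at an unadjusted p under 0.05). Over all genes 50.9% had a positive r. Without the SxRT tumours, the number that passed in the others rose from 13 to 126, 47 positive and 79 negative. For ENSCAFG00000008999 the same step gave 283 in place of 233. Whether the lists of the 2 genes differ was not tested.

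The genes most like each of the pair were taken as the 2 highest and 2 lowest Pearson r over the 27 untreated tumours, among the 13793 genes whose log2 CPM averaged 1 or more. Being the extremes, their untreated r is a description, and the 35 other tumours, which did not pick them, give the test. That set holds the 22 Sx and SxRT tumours whose levels chose the 2 genes, so it is not free of that choice. For ENSCAFG00000008999 the highest were ENSCAFG00000020263, on chromosome 9 from 60195124 to 60216819, with r 0.89, and ENSCAFG00000009261, on chromosome 27 from 8018880 to 8066331, with r 0.88. The lowest were ENSCAFG00000016423 on chromosome 8 (r -0.82) and ENSCAFG00000008092, on chromosome 31 from 11855338 to 11932056 (r -0.78). In the other tumours 3 of these 4 passed again with the same sign: r was 0.74 (limma adjusted p 0.000944) for ENSCAFG00000020263, 0.65 (limma adjusted p 0.0107) for ENSCAFG00000009261 and -0.61 (limma adjusted p 0.0197) for ENSCAFG00000008092. ENSCAFG00000016423 stood at -0.03 there (limma adjusted p 0.970). Without the SxRT tumours ENSCAFG00000008092 stood at -0.74 (limma adjusted p 0.00608) and ENSCAFG00000016423 at -0.15 (limma adjusted p 0.840).

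ENSCAFG00000020263, the closest correlate of ENSCAFG00000008999, was above its untreated range in 0 of the 9 SxRT tumours. In SxRT replicates 1 to 9 the log2 CPM of ENSCAFG00000020263 was 7.81, 8.46, 8.36, 3.89, 9.46, 8.29, 9.23, 9.75 and 9.80. All 9 values lay below the untreated maximum of 9.99, and replicates 3, 6 and 7, which had ENSCAFG00000008999 at 9.76 and above, had it at 8.36, 8.29 and 9.23. Replicate 4 was the lowest SxRT tumour for both genes. Among the Sx tumours, replicates 3, 5, 12 and 13 had ENSCAFG00000020263 above that maximum, at 10.94, 10.42, 10.54 and 10.73. Its median was 9.38 with Sx, 8.46 with SxRT and 8.05 in untreated tumours. Fitted SxRT minus Sx differences were -0.60 for ENSCAFG00000020263 and 0.42 for ENSCAFG00000009261, against 3.23 for ENSCAFG00000008999. Without the SxRT tumours r in the remaining 26 was higher, at 0.85 (limma adjusted p 0.000183) and 0.73 (limma adjusted p 0.00588).

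For ENSCAFG00000016488 none of the 4 extremes passed in the other tumours. ENSCAFG00000010229, on chromosome 20 from 38203520 to 38707254, went from r 0.80 in the untreated tumours to 0.02 (limma adjusted p 0.977), and ENSCAFG00000004956 on chromosome 21 from 0.80 to 0.35 (limma adjusted p 0.442). ENSCAFG00000007915 on chromosome 23 went from -0.82 to -0.21 (limma adjusted p 0.710), and ENSCAFG00000002007 on chromosome 14 from -0.81 to -0.14 (limma adjusted p 0.815). All 4 kept their sign. Without the SxRT tumours ENSCAFG00000004956 stood at 0.55 (limma adjusted p 0.112).

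Chromosomal neighbours of ENSCAFG00000008999 were few, and most had too few counts to test. Of the 22 genes within 1 Mb, 4 passed the filter on low counts, none of which passed the correlation test in the untreated tumours (limma). Their median r was 0.35, against -0.04 over all genes. Their SxRT minus Sx differences ran from 0.16 to 1.08 with a median of 0.47, against -0.04 over all genes, and none of them was called by edgeR in either that contrast or RT against untreated.

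ENSCAFG00000009020, the nearest gene to ENSCAFG00000008999, was high in the same SxRT tumours. It lies 6305 bases away, on the plus strand between 1698363 and 1761641. Its log2 CPM in SxRT replicates 1 to 9 was 4.20, 4.82, 6.22, 4.11, 5.78, 6.63, 7.60, 5.81 and 5.45, and 0 of the 27 untreated tumours lay above 5.79. Replicates 3, 6, 7 and 8 exceeded that value and replicate 5 lay just under it, and these are the 5 tumours high for ENSCAFG00000008999. Over the 35 treated tumours, within groups, r with ENSCAFG00000008999 was 0.73 (limma adjusted p 0.00313). That call rests on the SxRT tumours, whose levels chose ENSCAFG00000008999. Without them r was 0.55 (limma adjusted p 0.149), and in the 27 untreated tumours it was 0.43 (limma adjusted p 0.148). Its SxRT minus Sx difference was 1.08 and was not called (edgeR adjusted p 0.401). On the other side the nearest tested gene, ENSCAFG00000008741, lies 512119 bases away. Its r was 0.17 in the 27 untreated tumours and 0.33 in the 35 treated tumours (limma adjusted p 0.633 and 0.337).

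**Figure D5:**
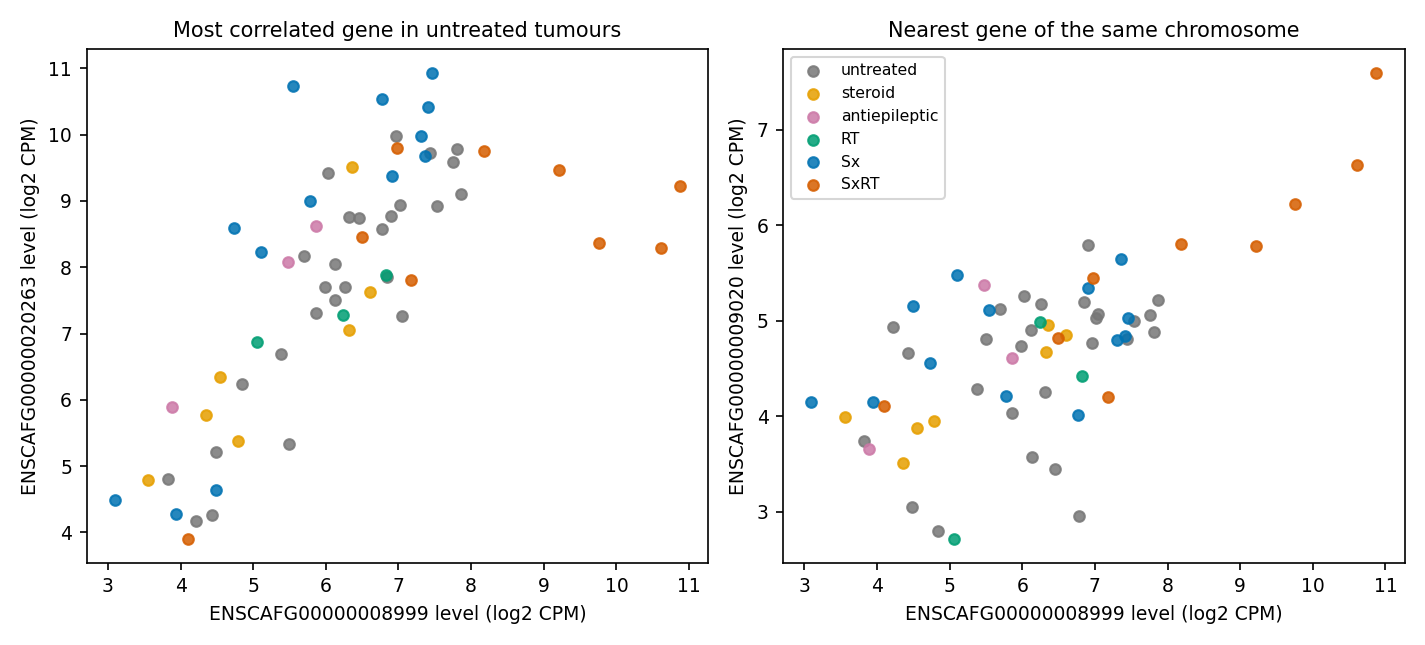
Level of ENSCAFG00000008999 (horizontal axis, log2 CPM) against ENSCAFG00000020263, its most correlated gene in untreated tumours (left), and ENSCAFG00000009020, its nearest gene on chromosome 33 (right), both in log2 CPM on the vertical axis, in 62 tumours coloured by treatment label. In the SxRT tumours with ENSCAFG00000008999 above 9.2 the left gene stays between 8.29 and 9.46, and the right gene lies between 5.78 and 7.60.

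ENSCAFG00000016488 lies in a denser region. Of 84 genes within 1 Mb 54 were tested, and 5 passed the correlation test in untreated tumours (limma), against 8.54% of all genes. The median r of the 54 was -0.06, against -0.05 over all genes. In SxRT minus Sx, the contrast that chose the gene, the median of the 54 was 0.15 against -0.04 over all genes, and edgeR called none of them. The largest difference was 1.90 for ENSCAFG00000041077, named after its value was seen, whose mean log2 CPM was -0.33. The nearest tested genes were ENSCAFG00000016482, 2140 bases before it, and ENSCAFG00000016496, 2959 bases after it, both on the plus strand. Their r was -0.30 and -0.05 in untreated tumours (limma adjusted p 0.340 and 0.918). Of the SxRT tumours, replicates 3 and 5 had ENSCAFG00000016496 at 7.00 and 5.72, above the untreated maximum of 5.43. Replicate 7, the highest for ENSCAFG00000016488, had it at 4.65. Tumours of other groups exceeded that maximum too: steroid replicate 2 at 6.06, Sx replicate 11 at 5.54 and Sx replicate 7 at 5.44.

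Library measures were set against both genes in the 40 tumours without surgery, as deviations from group means, in 8 relations. ENSCAFG00000008999 fell along the first principal component (r -0.53, permutation p 0.00105, adjusted p 0.00840; rho -0.54, permutation p 0.000720, adjusted p 0.00576), and r was -0.46 without the 2 farthest. For ENSCAFG00000016488 r was 0.41 (permutation p 0.0202, adjusted p 0.0809) and rho 0.48 (permutation p 0.00402, adjusted p 0.0161), with r 0.48 without the 2 farthest. With the mitochondrial share ENSCAFG00000016488 had r -0.12 and rho 0.36 (permutation p 0.541 and 0.0317, adjusted p 0.572 and 0.0846), and r 0.43 without the 2 farthest. The relations of both genes with total counts and with the share of even counts, and that of ENSCAFG00000008999 with the mitochondrial share, did not pass an adjusted p of 0.05. The component is built from the same libraries as the correlated genes, and its part in their number was not tested.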

How the data were processed

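The authors deposited 1 table of raw counts. Per the file headers, reads per gene came from featureCounts 2.0.4 over exons of Ensembl 100 on CanFam3.1, from primary alignments, without strand and with each read of a pair counted. The submitters' processing notes name STAR, featureCounts and DESeq2 with canFam3, and the version of STAR is not given in the sources used here. The treatment label gave the groups. Replicate numbers follow accession order and make no pairs. Every library is labelled as its own tumour, and p-values measure the spread between these tumours. Of 1891 pairs of libraries the 2 most alike still had a chi-square of 11.8 per gene, so none was counted as a repeat.

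filterByExpr, given the treatment groups, kept 18370 genes, and TMM factors lay between 0.556 and 1.24. A single edgeR 4.0.16 quasi-likelihood model (R 4.3.3) held all 62 libraries with terms for treatment, sex and neuter status. Benjamini-Hochberg adjustment ran over all genes tested, with a threshold of 0.05. The SE of a difference is its size divided by the square root of F. Correlated genes came from limma 3.58.1 (limma-trend on log2 CPM, prior count 2). The genes named beside each member are the 2 with the highest and the 2 with the lowest Pearson r in untreated tumours, among genes averaging a log2 CPM of 1 or more, and the nearest tested gene on each side. Genes within 1 Mb were summarised. Survival used a stratified Cox score test that censored dogs lost to follow-up. Permutation tests were 2-sided with 100000 resamples, and exact under 10 dogs, in Python 3.11.15 (scipy 1.17.1). DESeq2 1.42.0, limma voom with quality weights, and other scalings, filters, covariates and samples were alternatives. Tests were tried on simulated data.

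The 2 genes, the tests and the alternatives were chosen with earlier results of these data known. Without gene names, marker lists were not analysed here, and no sequence of either gene was used.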

Additional observations from a re-analysis of the deposited data

Results flagged for a closer look

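Steroid replicate 5 stood far from the other 6 steroid tumours in 2 measures of its library. Its total was 12064000 counts to 5 significant digits, where the next highest of the group had 5109820. Mitochondrial genes took 46.692% of its counts, where the next highest of the group had 21.4%. These gaps were 0.758 and 0.747 of the group's range, above the limit of 0.568 for 7 tumours. Of the 10 sets of values compared (5 measures in the steroid and in the SxRT tumours) no other had a gap above its limit. A gap that just reaches the limit arises by chance in about 1 in 20 groups. Its levels of ENSCAFG00000008999 and ENSCAFG00000016488, 3.56 and 5.94 on the log2 CPM scale, were the lowest of the group, with gaps to the next tumour of 0.262 and 0.520 of the group's range, under the limit of 0.568 for 7 tumours. Without it the steroid minus untreated differences of the 2 genes were -0.69 and 0.35 (edgeR adjusted p 0.843 and 0.826).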

How the results depend on the processing

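In the 6 tests of the 2 genes against untreated tumours and the 4 by sex or name number, none of 96 alternative fits called either gene (lowest adjusted p 0.402), and the sign changed in 3, all for ENSCAFG00000016488: steroid -0.33 and antiepileptic -0.26 within name numbers 17 to 22, and sex 0.027 with the share of even counts as a covariate. The SxRT minus Sx difference stayed positive, from 1.31 to 3.34 and from 0.32 to 1.68 over 9 alternatives, and from 2.69 to 3.45 and from 1.01 to 1.57 with 1 tumour left out, lowest for both without SxRT replicate 7. limma voom gave 2.44 and 0.98 and called neither of the 2 genes, and with RLE scaling ENSCAFG00000016488 was not called.

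Counts of genes called moved widely, and the cause was not tested. RT against untreated: 216 with no filter, 303 with limma voom, 23 with only these groups, 34 and 0 within name numbers 11 to 16 and 17 to 22, and 8 to 196 with a replicate left out (8, 123 and 196 without replicates 1, 2 and 3). Steroid: 151, 281, 1, and 1 and 0 under the same, 137 with DESeq2, 109 with treatment group only, and 2 to 142 (2 without replicate 5). Antiepileptic: 31 with no filter, 30 with DESeq2, 6 with limma voom, 0 with treatment group only and 0 within numbers 17 to 22, and 4 to 13. SxRT against Sx: 1 with RLE scaling, 8 with no filter, 39 with DESeq2, 11 with treatment group only, 0 with only these groups, 0 and 0 within the number ranges, and 0 to 17 (0 without SxRT replicates 6 or 7 or Sx replicates 9 or 11). DESeq2 split its calls into 30 higher and 28 lower for RT, 108 and 29 for steroid, 1 and 29 for antiepileptic and 18 and 21 for SxRT against Sx. Sex: 6 with DESeq2 and 3 with the even share.

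Genes correlated with ENSCAFG00000016488 numbered 2368 in untreated tumours with RLE scaling and 126 in the others without SxRT. Survival: 22 with no strata and 3 with a prior count of 0.5, and 0 to 0 with each of the 8 dogs with a recorded end left out in turn (the 14 lost to follow-up were not). There the log hazard ratio of ENSCAFG00000008999 ranged from -0.27 to 0.035, the latter without SxRT replicate 4, and that of ENSCAFG00000016488 from -2.70 to -0.93. The correlation of the 2 genes was 0.037 in 40 tumours without surgery, 0.37 in 62, 0.26 in Sx, 0.35 in steroid and 0.087 in 53 tumours without SxRT. The last 3 and the step without SxRT were chosen after seeing the data. No paired analysis was possible because replicate numbers follow accession order. Small groups of 3 and counts per read limit what these tests resolve.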
